A study of Mus musculus with 48 samples.

Results

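The methionine cycle and the use of its methyl groups were followed across mouse livers through 10 genes: Mat1a, Gnmt, Bhmt, Bhmt2, Ahcy, Cbs, Cth, Pemt, Dmgdh and Sardh. They were taken by name as the 10 rows of the deposited expression table that carry these symbols, out of 49315 genes. All 10 passed the filter on low values, as 10 of the 15820 genes tested, and none was at 0 in any library.

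The livers came from male and female mice of the C57BL/6J strain, kept on a high-fat diet (HFD) or a low-fat diet (LFD) and dosed each week for 12 weeks. The dose was either vehicle or a mixture of 3 compounds that bind the aryl hydrocarbon receptor, with TCDD at 10 ng/kg, PeCDF at 80 ng/kg and PCB126 at 140 ng/kg. The 8 groups, each of 6 libraries, were male HFD mixture, male HFD vehicle, male LFD mixture, male LFD vehicle, female HFD mixture, female HFD vehicle, female LFD mixture and female LFD vehicle. The sources used here do not state the animals' age or whether mice of both diets formed 1 cohort, so diet and cohort cannot be told apart. No batch is stated either, and the p-values reflect only how these libraries scatter. Values are TPM, a level per transcript length that sums to the same total in every library, so the depth of each library is unknown.

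The methionine cycle makes S-adenosylmethionine (SAM), the methyl donor of most methylation reactions, and recovers what is left of it. In the liver Mat1a encodes the enzyme that makes SAM from methionine, and SAM gives up its methyl group chiefly through glycine N-methyltransferase (Gnmt), which makes sarcosine, and phosphatidylethanolamine N-methyltransferase (Pemt), which makes phosphatidylcholine. Ahcy splits the by-product S-adenosylhomocysteine into homocysteine, which is either methylated back to methionine with betaine (Bhmt; Bhmt2 uses S-methylmethionine as its methyl donor) or committed to cysteine by Cbs and then Cth. Dmgdh and Sardh are mitochondrial dehydrogenases that take the methyl groups of dimethylglycine and sarcosine into the folate pool.

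Of the 10 genes, 3 are neighbours. On GRCm38 (GENCODE M21), Bhmt lies at chr13:93616675-93637961 and Bhmt2 at chr13:93655720-93674302, both on the minus strand, and Dmgdh at chr13:93674433-93752833 on the plus strand. The annotated RefSeq starts of Bhmt2 and Dmgdh point away from each other across 134 bases, so that both genes read out of 1 shared promoter region. The other genes are spread: Mat1a at chr14:41105035-41124412 (plus), Gnmt at chr17:46725664-46729168, Cbs at chr17:31608894-31637238, Ahcy at chr2:155059310-155074497, Sardh at chr2:27188393-27248337, Cth at chr3:157894248-157925077 and Pemt at chr11:59970614-60046489, all of these but Mat1a on the minus strand. Bhmt and Bhmt2 shared 10 stretches of 50 bases, of 5755 in Bhmt and 2405 in Bhmt2, and no other pair of the 10 genes shared any. Annotated antisense genes covered 187 of 5758 exon bases of Bhmt, 215 of 3414 of Dmgdh and 188 of 5432 of Sardh. The sources used here do not state whether counting used strand, so reads of such partners cannot be told apart from those of the genes themselves.

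Promoter windows (250 bases before to 50 after the start, RefSeq, GRCm38.p6) were found for 8 of the 10 genes. Those of 4 genes are shown because they belong to the genes that moved in opposite directions between the diets (Bhmt and Cbs), to the gene with the most negative difference after the mixture in HFD males (Gnmt) and to the shared region of Bhmt2 and Dmgdh. Capitals mark, on either strand, the core of the dioxin response element (GCGTG), the GC box (GGGCGG) and the CCAAT box (CCAAT).
Gnmt, chr17:46729116-46729415, minus strand: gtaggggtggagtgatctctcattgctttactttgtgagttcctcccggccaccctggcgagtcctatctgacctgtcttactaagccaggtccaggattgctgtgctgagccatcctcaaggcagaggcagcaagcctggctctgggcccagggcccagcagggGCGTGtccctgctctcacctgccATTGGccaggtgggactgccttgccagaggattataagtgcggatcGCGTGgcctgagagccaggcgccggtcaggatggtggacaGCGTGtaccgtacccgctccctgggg
Bhmt, chr13:93637709-93638008, minus strand: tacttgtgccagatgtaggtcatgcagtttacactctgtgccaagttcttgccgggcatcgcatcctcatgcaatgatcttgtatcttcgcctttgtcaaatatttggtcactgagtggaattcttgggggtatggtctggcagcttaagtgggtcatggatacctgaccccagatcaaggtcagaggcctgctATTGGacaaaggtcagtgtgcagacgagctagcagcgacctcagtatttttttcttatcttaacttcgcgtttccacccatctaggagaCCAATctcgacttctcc
Cbs, chr17:31637156-31637455, minus strand: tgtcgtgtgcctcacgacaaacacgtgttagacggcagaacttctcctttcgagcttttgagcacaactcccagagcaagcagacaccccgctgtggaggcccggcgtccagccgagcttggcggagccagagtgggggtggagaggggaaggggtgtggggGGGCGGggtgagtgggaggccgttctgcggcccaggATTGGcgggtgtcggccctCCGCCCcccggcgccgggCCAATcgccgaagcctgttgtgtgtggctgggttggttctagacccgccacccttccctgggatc
Dmgdh, chr13:93674186-93674485, plus strand, overlapping the Bhmt2 window: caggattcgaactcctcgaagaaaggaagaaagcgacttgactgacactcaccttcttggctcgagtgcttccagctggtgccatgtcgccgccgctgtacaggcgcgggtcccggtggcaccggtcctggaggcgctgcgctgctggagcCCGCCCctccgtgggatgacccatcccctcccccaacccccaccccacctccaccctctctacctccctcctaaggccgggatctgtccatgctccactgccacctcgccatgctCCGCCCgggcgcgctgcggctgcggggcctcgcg

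The Gnmt window held 3 copies of the response element core, beginning 85 and 16 bases before the start and at base 25 after it. Ahcy held 1, and none was found in the windows of Bhmt, Bhmt2, Cbs, Pemt, Dmgdh or Sardh. At least 1 copy stood in 32.4% of the 32851 mouse promoters of the same length, so the core is a common string of letters. The shared Bhmt2 and Dmgdh region was rich in G and C, with 68.0% in the Dmgdh window and 73.7% in the Bhmt2 window, against a median of 52.7% over all promoters. These windows overlap, and both held the same 2 GC boxes, read from opposite strands, and no CCAAT box. The Bhmt window had no GC box and 2 CCAAT boxes. Cbs held 2 of each box. A GC box was present in 35.7% and a CCAAT box in 37.4% of all promoters. These matches describe the letters of the windows and were not tested against the expression values.

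The 10 genes were abundant liver transcripts. Their summed level per library averaged from 0.851% of the total in HFD mixture males to 1.18% in LFD vehicle females. Gnmt (mean 2791.1 TPM over the 48 libraries) and Mat1a (2786.8 TPM) ranked 47 and 48 among all genes, and Ahcy (1650.0 TPM) and Bhmt (1285.1 TPM) followed. Sardh (492.1 TPM), Dmgdh (415.5 TPM), Cbs (317.2 TPM), Pemt (262.2 TPM), Cth (236.4 TPM) and Bhmt2 (230.2 TPM) formed a lower tier.

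The genes differed in how much they varied. Bhmt spanned 524.3 to 2121.1 TPM over the 48 libraries, a ratio of 4.05 between highest and lowest. Cbs (ratio 3.64), Cth (3.54), Gnmt (3.31) and Mat1a (3.03) were also variable, as were Sardh (2.79) and Ahcy (2.74). Bhmt2 was the steadiest of the 10, between 185.1 and 278.4 TPM, a ratio of 1.5, and Dmgdh (1.77) and Pemt (1.88) moved little more. When the 8 groups were ordered by mean for each gene, 64 of the 70 neighbouring pairs of groups lay closer than the larger of their SDs, and 6 lay further apart. Mat1a, Gnmt, Bhmt, Cbs, Pemt and Sardh each had 1 such pair.

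**Figure D1:**
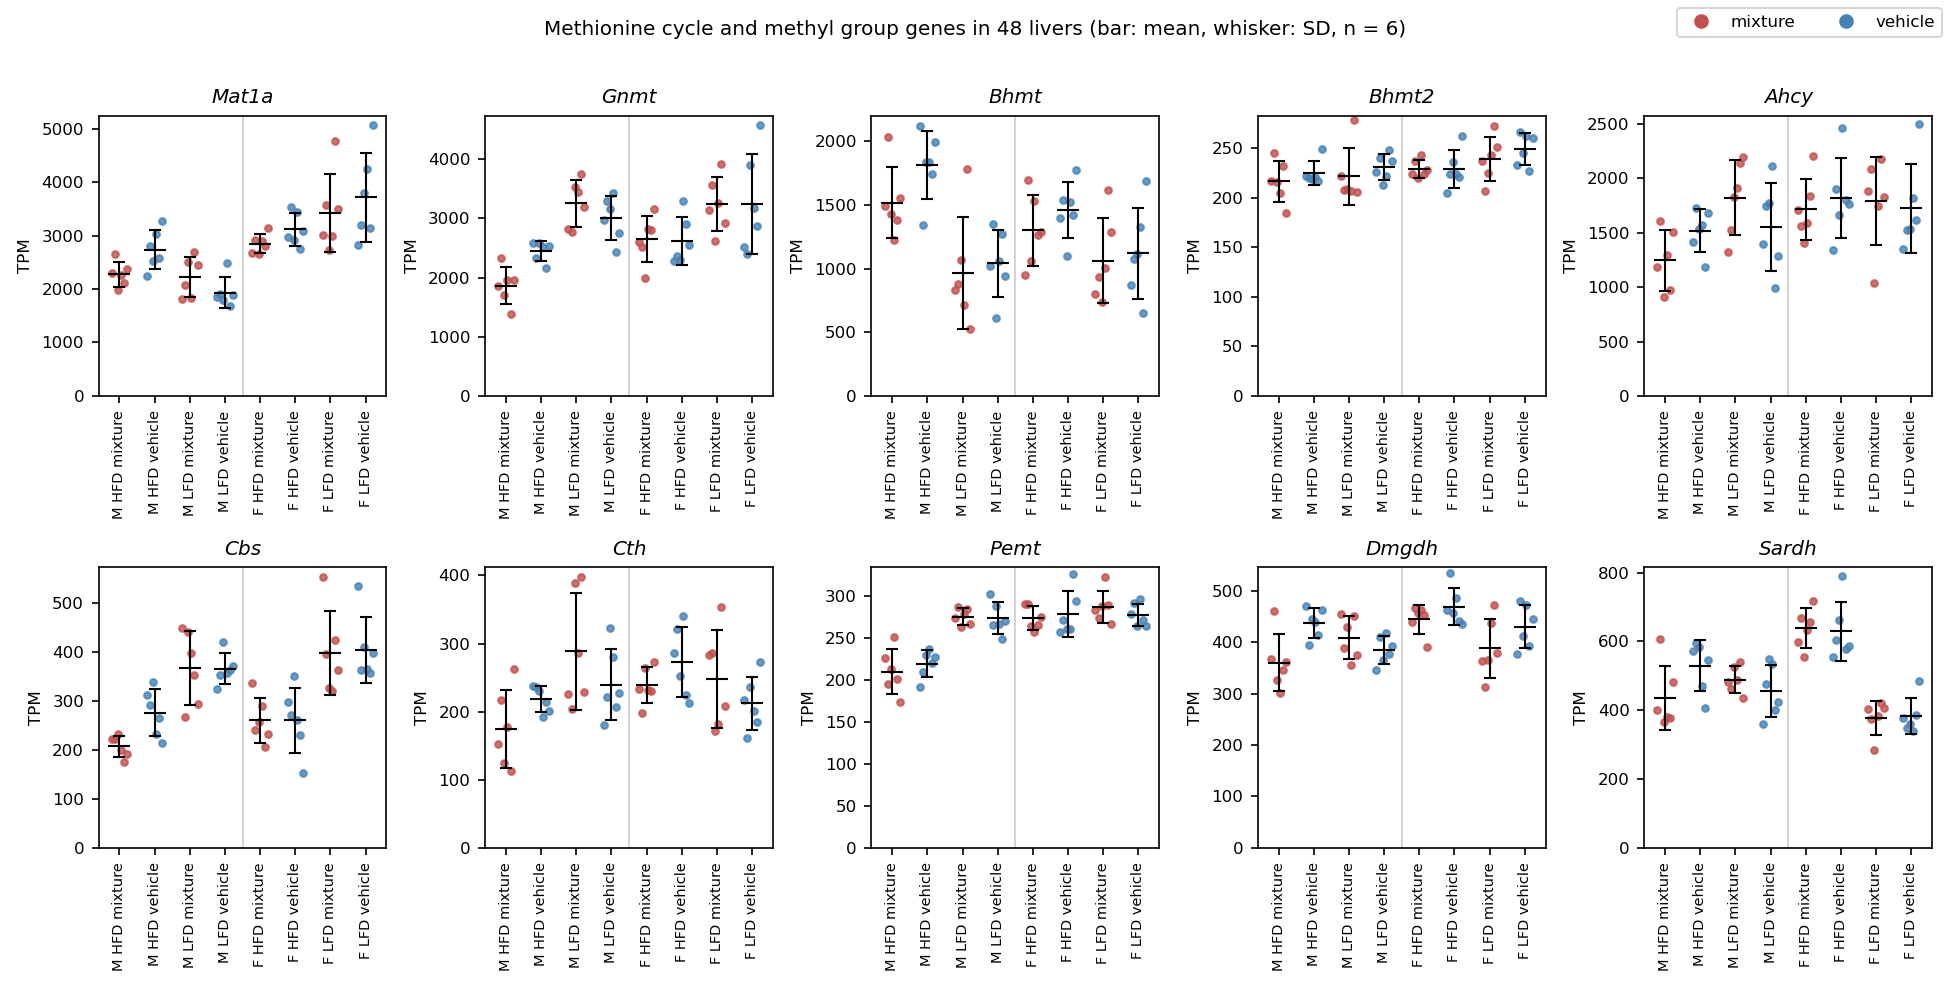
TPM of each of the 10 genes (y axis, from 0) in the 8 groups (x axis; M male, F female; mixture in red, vehicle in blue). Points are the 6 libraries of a group, the bar is their mean and the whiskers are 1 SD. Sardh stands above 550 TPM in all 12 HFD female libraries, and Mat1a is lower in LFD males than in LFD females.

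Hepatocyte marker genes were abundant in every library, with 8 of 8 core markers above 0 in all 48. Skeletal muscle transcripts (15 genes, summed) reached 22565.3 TPM in male HFD mixture replicate 6, 8676.4 TPM in female LFD vehicle replicate 3 and 1851.8 TPM in female LFD mixture replicate 3, against a median of 39.5 TPM over the 48. The last of these also held 1319.7 TPM of 6 adrenal cortex genes, against a median of 9.06 TPM. Results were therefore also computed without these 3 libraries, which ended 1 call among the 10 genes, that of Gnmt in the comparison of diet effects between sexes. As a check of exposure, Cyp1a2, a direct target of the aryl hydrocarbon receptor, was higher with the mixture in every setting, by between 2.24 and 2.85 on the log2 scale, and Cyp1a1 by at least 1.18 (limma, largest adjusted p = 0.00625). Cyp1a1 rose by 5.60 in LFD males and 4.93 in LFD females, but by 1.52 in HFD males and 1.18 in HFD females. Its difference between diets was -4.08 in males (limma adjusted p = 1.51e-13) and -3.75 in females (limma adjusted p = 2.76e-12). That of Cyp1a2 was 0.09 in males and -0.21 in females, and neither passed.

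Diet gave the clearest differences among the 10 genes, and they were not the same in males and females. In vehicle males on HFD, Mat1a and Bhmt were higher and Cbs and Pemt lower than in vehicle males on LFD. In vehicle females on HFD, Sardh was higher and Cbs lower, and none of the other 8 genes passed the test. Cbs, the enzyme that commits homocysteine to cysteine, was the 1 gene of the 10 that passed the test as lower on HFD in all 4 comparisons. The share of all genes that did so was not computed. In vehicle males 4 of 10 genes passed, 2 in each direction, beside 31.4% of all genes tested (25.6% higher and 5.82% lower). In vehicle females 2 of 10 passed, 1 in each direction, beside 28.0% (14.4% higher and 13.5% lower). Both totals are near the share of all genes that differed between diets.

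The transcript of Mat1a, the SAM synthase, was higher on HFD in vehicle males. Mat1a had 2236.6 TPM at lowest, 2690.1 at the median and 3267.9 at highest in HFD vehicle males, against 1674.0, 1870.8 and 2494.1 TPM in LFD vehicle males. Of the 6 HFD libraries, 5 lay above every LFD library. The log2 change of 0.50 (SE 0.12) had an adjusted p of 0.00124 in limma, and rescaling TPM by trimmed means ended the call (0.35, adjusted p = 0.0527). In mixture-treated males Mat1a had 1975.0 to 2649.0 TPM (median 2281.3) on HFD and 1815.7 to 2689.6 TPM (median 2256.1) on LFD, a log2 change of 0.04 that did not pass (adjusted p = 0.812). The diet effect in mixture males differed from that in vehicle males by -0.46, which did not pass either (limma adjusted p = 0.512). The LFD vehicle library at 2494.1 TPM stood apart from the other 5 of its group, which lay between 1674.0 and 1898.9 TPM.

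Mat1a moved the other way in females, where HFD vehicle livers had 2747.0 to 3538.3 TPM (median 3032.6) and LFD vehicle livers 2833.5 to 5075.4 TPM (median 3496.9). That log2 change of -0.23 did not pass the test, and the groups overlapped. The difference between the sexes in the effect of diet did pass, at 0.73 on the log2 scale (SE 0.17, limma adjusted p = 0.00225). In that comparison 3 of the 10 genes passed, 1 more positive and 2 more negative in males, beside 18.2% of all genes (14.8% more positive and 3.47% more negative).

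The Bhmt transcript was higher on HFD in males. Bhmt ranged from 1339.8 to 2121.1 TPM (median 1837.6) in HFD vehicle males and from 610.1 to 1350.7 TPM (median 1042.9) in LFD vehicle males. All but 1 of the HFD livers lay above the highest LFD liver. The log2 change was 0.83 (SE 0.22, limma adjusted p = 0.00255). In mixture-treated males it was 0.74 (SE 0.22, limma adjusted p = 0.00537), with 1225.3 to 2034.5 TPM on HFD and 524.3 to 1786.3 TPM on LFD, so that here the groups overlapped. That call was lost after trimmed-mean rescaling (0.54, limma adjusted p = 0.0605). In females the log2 change of Bhmt was 0.32 with the mixture (limma adjusted p = 0.333) and 0.43 with vehicle (limma adjusted p = 0.137). The difference between the sexes in this effect was 0.40 with vehicle, with a 95% interval of -0.22 to 1.01, and did not pass. Bhmt2, next to it on the chromosome, had log2 changes between -0.12 and -0.03 in the 4 diet comparisons, none of which passed.

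Pemt, which spends SAM on phosphatidylcholine, was lower on HFD in males. It had 192.1 to 236.9 TPM (median 223.9) in HFD vehicle males and 249.0 to 302.6 TPM (median 268.6) in LFD vehicle males. In mixture-treated males the values were 174.1 to 251.6 TPM (median 206.9) on HFD and 263.0 to 287.6 TPM (median 275.9) on LFD. Neither pair of groups overlapped.

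The log2 changes of Pemt were -0.32 with vehicle (SE 0.06, limma adjusted p = 0.000147) and -0.40 with the mixture (SE 0.06, limma adjusted p = 3.51e-06). In females they were 0.00 and -0.07, with 256.9 to 326.9 TPM in the 12 HFD livers and 264.6 to 322.8 TPM in the 12 LFD livers. The difference between the sexes was -0.32 among vehicle livers (limma adjusted p = 0.0115) and -0.33 among mixture livers (limma adjusted p = 0.00898).

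Gnmt, the other main consumer of SAM, was lower on HFD in mixture-treated males. The HFD mixture males had 1383.1 to 2335.3 TPM (median 1906.2), and the LFD mixture males 2772.0 to 3754.4 TPM (median 3322.1), with no overlap. The log2 change was -0.81 (SE 0.13, limma adjusted p = 2.36e-06). In vehicle males the values were 2160.5 to 2579.1 TPM (median 2527.7) on HFD and 2428.4 to 3432.5 TPM (median 3068.3) on LFD, a log2 change of -0.29 that missed the threshold (limma adjusted p = 0.0833) but passed when TPM were rescaled by trimmed means (-0.44, adjusted p = 0.022). In females it was -0.29 with the mixture and -0.28 with vehicle, and neither passed.

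**Figure D2:**
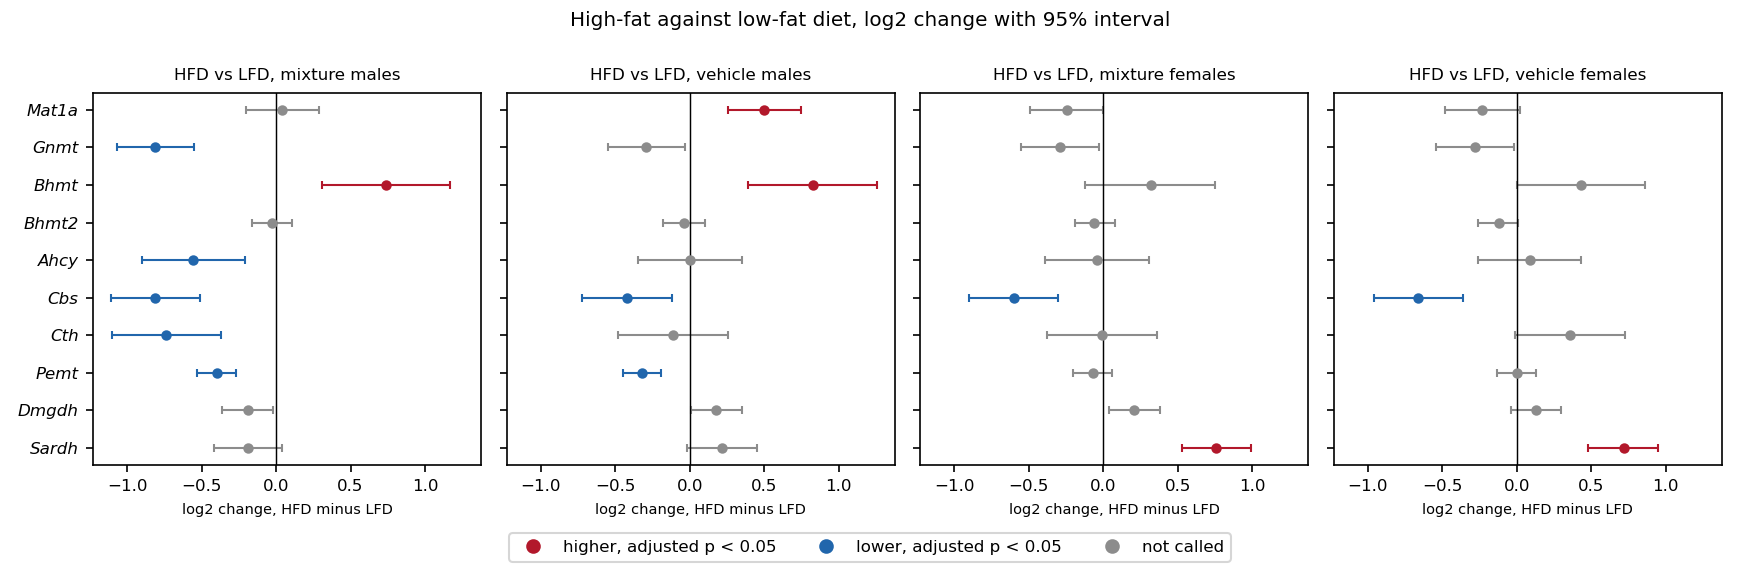
Log2 change (HFD minus LFD) of log2(TPM + 1) for the 10 genes, with 95% intervals from limma, in mixture males, vehicle males, mixture females and vehicle females. Red and blue mark genes that were higher or lower at an adjusted p under 0.05; Cbs is blue in all 4 panels and Sardh red in both panels of females.

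The transsulfuration genes fell on HFD, Cbs in both sexes and Cth in mixture-treated males. Cbs had 174.0 to 232.0 TPM (median 210.5) in HFD mixture males and 266.3 to 448.5 TPM (median 375.5) in LFD mixture males. In vehicle females it had 152.1 to 350.5 TPM (median 266.0) on HFD and 357.6 to 535.2 TPM (median 381.0) on LFD. Those 2 pairs of groups did not overlap. In mixture females, 5 of 6 HFD livers (205.9 to 336.0 TPM) lay below all LFD livers (320.8 to 553.2 TPM), and in vehicle males 5 of 6 HFD livers (213.6 to 339.4 TPM) lay below all LFD livers (325.1 to 421.4 TPM).

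The log2 changes of Cbs were -0.81 in mixture males (SE 0.15, limma adjusted p = 3.04e-05), -0.42 in vehicle males (adjusted p = 0.0267), -0.60 in mixture females (adjusted p = 0.00286) and -0.66 in vehicle females (adjusted p = 0.000647). The call in vehicle males was lost when no filter on low values was used (adjusted p = 0.0586). The difference between the sexes was 0.24 with vehicle (95% interval -0.18 to 0.67) and -0.20 with the mixture (-0.63 to 0.22), neither of which passed.

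Cth had 112.3 to 262.1 TPM (median 164.8) in HFD mixture males and 203.6 to 397.7 TPM (median 257.3) in LFD mixture males, with 4 of 6 HFD livers below every LFD liver. Its log2 change was -0.74 (SE 0.18, limma adjusted p = 0.00119). Ahcy, upstream of both, had 910.7 to 1611.0 TPM (median 1240.4) in HFD mixture males and 1325.9 to 2199.4 TPM (median 1874.8) in LFD mixture males, also with 4 of 6 below, a log2 change of -0.56 (SE 0.17, adjusted p = 0.00932). Among vehicle males the changes were -0.11 for Cth and 0.00 for Ahcy, and in females neither gene passed.

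In all, 6 of 10 genes passed between diets in mixture males, 1 higher and 5 lower, beside 38.6% of all genes (31.7% higher and 6.92% lower). The split of calls over all genes depended on how libraries were scaled. The deposited TPM gave 82.1% of called genes as higher, and rescaling by trimmed means, which shifted the median of all genes by -0.15, gave 49.2%. Under that rescaling the 5 lower genes were still called, Bhmt was no longer called, and Dmgdh (-0.39), Sardh (-0.39) and Bhmt2 (-0.23) became called as lower. In vehicle males the split was 81.5% higher as deposited and 53.2% rescaled (median shift -0.12).

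Sardh was higher on HFD in females. Sardh had 554.6 to 718.2 TPM (median 645.6) in HFD mixture females and 282.7 to 421.3 TPM (median 392.2) in LFD mixture females. It had 553.3 to 789.7 TPM (median 595.4) in HFD vehicle females and 340.1 to 484.3 TPM (median 367.9) in LFD vehicle females. In both pairs every HFD liver lay above every LFD liver.

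Sardh rose by 0.76 on the log2 scale with the mixture (SE 0.11, limma adjusted p = 3.16e-06) and by 0.72 with vehicle (SE 0.11, limma adjusted p = 5.71e-06). In males the changes were -0.19 with the mixture, where HFD livers had 364.5 to 606.3 TPM and LFD livers 434.2 to 540.5 TPM, and 0.22 with vehicle, where HFD livers had 407.3 to 594.2 TPM and LFD livers 359.2 to 548.6 TPM; neither passed. The effect of diet was lower in males than in females by 0.50 among vehicle livers (adjusted p = 0.0263) and by 0.95 among mixture livers (adjusted p = 5.55e-05). The first of these was lost without the filter on low values (adjusted p = 0.0579). Dmgdh, which feeds sarcosine to Sardh, had log2 changes between -0.19 and 0.21 in the 4 diet comparisons, and none passed. In vehicle males its change of 0.18 passed when only the groups compared were fitted (limma adjusted p = 0.0385). In mixture males Dmgdh passed as lower after trimmed-mean rescaling (-0.39, limma adjusted p = 0.000585). In mixture females 2 of 10 genes passed, Sardh higher and Cbs lower, beside 19.2% of all genes (11.5% higher and 7.74% lower).

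Among mixture-treated livers the effect of diet was compared between the sexes as an addition made after the values had been seen, and 5 of 10 genes passed, all more negative in males, beside 17.0% of all genes (13.4% more positive and 3.65% more negative). Besides Sardh and Pemt, these were Dmgdh (-0.39, limma adjusted p = 0.0176), Gnmt (-0.52, adjusted p = 0.0416) and Cth (-0.73, adjusted p = 0.0445). The last 3 were near the threshold. Without the 3 libraries that held muscle transcripts Gnmt no longer passed (-0.48, adjusted p = 0.076), and with only the 4 groups compared in the model neither Cth (adjusted p = 0.1) nor Dmgdh (adjusted p = 0.0559) did.

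Markers of liver zones and other cells also differed between these groups. All 8 periportal hepatocyte markers were above 0 in every library, and their summed level was 7160.2 to 9104.3 TPM in HFD mixture males and 9528.6 to 16112.4 TPM in LFD mixture males. In vehicle males it was 9701.7 to 10630.0 TPM on HFD and 9990.8 to 15453.4 TPM on LFD. In females it was 8364.3 to 10584.0 TPM on HFD and 10647.4 to 18086.5 TPM on LFD with the mixture, and 8649.7 to 12100.3 TPM on HFD and 13716.4 to 18990.9 TPM on LFD with vehicle. The 8 hepatocyte core markers summed to 83282.0 to 112871.5 TPM in HFD mixture males and 119970.6 to 133290.0 TPM in LFD mixture males. In vehicle males they summed to 97263.7 to 112348.6 TPM on HFD and 117968.2 to 161311.2 TPM on LFD. In vehicle females they summed to 110090.4 to 126877.2 TPM on HFD and 141671.9 to 169597.0 TPM on LFD. In mixture females the ranges overlapped, at 107863.0 to 126391.7 TPM on HFD and 123787.4 to 158992.5 TPM on LFD. The summed level of the 8 pericentral hepatocyte markers was higher on HFD in females with no overlap. It was 11480.3 to 13839.7 TPM on HFD and 8166.9 to 10966.8 TPM on LFD with the mixture. With vehicle it was 11635.5 to 15196.6 TPM on HFD and 7749.9 to 10329.8 TPM on LFD. This sum is mostly Cyp2e1 (median 8270 TPM over the 48 libraries), and the 8 markers were not compared singly. The pairs of female groups in which Sardh did not overlap were thus also apart in these markers. Over the 48 libraries Sardh and their sum had r = 0.71, a value that includes the differences between groups just given. With group means subtracted, Sardh had r = 0.46 with this sum and 0.54 with the summed periportal markers. In males the pericentral sums overlapped between diets. The 6 stellate cell markers summed to 280.6 to 584.3 TPM in HFD mixture males and 110.5 to 158.1 TPM in LFD mixture males. In vehicle males they summed to 239.7 to 308.9 TPM on HFD and 129.1 to 169.4 TPM on LFD, and in females these sums overlapped between diets. The 5 adipocyte markers summed to 19.8 to 121.2 TPM in HFD mixture males and 0.162 to 14.4 TPM in LFD mixture males. In vehicle males they summed to 27.9 to 330.9 TPM on HFD and 0.537 to 16.5 TPM on LFD, and in females these sums overlapped between diets. Among the adipocyte markers Cfd had a median of 5.37 TPM over the 48 libraries, and each of the others 0.0857 TPM or less. The part of these marker differences in the changes of the 10 genes was not tested, and in whole liver fewer cells of a type and less RNA per cell cannot be told apart.

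The sexes differed in Mat1a on LFD and in Pemt on HFD. Mat1a had 1674.0 to 2494.1 TPM (median 1870.8) in LFD vehicle males and 2833.5 to 5075.4 TPM (median 3496.9) in LFD vehicle females, with every male below every female. The log2 change of -0.93 (SE 0.12, limma adjusted p = 9.85e-08) was the single call among the 10 genes, beside 23.7% of all genes. On HFD the same difference was -0.19 (adjusted p = 0.349), with 2236.6 to 3267.9 TPM in males and 2747.0 to 3538.3 TPM in females.

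Pemt had 192.1 to 236.9 TPM (median 223.9) in HFD vehicle males and 257.6 to 326.9 TPM (median 266.7) in HFD vehicle females, again without overlap. Its log2 change was -0.34 (SE 0.06, limma adjusted p = 0.000195), the single call of the 10 on HFD, beside 11.8% of all genes. On LFD the Pemt ranges overlapped almost entirely, at 249.0 to 302.6 TPM in males and 264.6 to 296.3 TPM in females. Rescaling by trimmed means moved the median of all genes between LFD males and females by 0.09, and the called genes were then 52.2% higher in males, against 27.9% as deposited. Sardh then also passed, higher in males by 0.36 (adjusted p = 0.036). On HFD the share higher in males was 56.6% rescaled and 70.1% as deposited.

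The mixture called none of the 10 genes in any of the 4 settings of sex and diet. Few genes of the whole table were called either: 0.0948% in HFD males, 0.0379% in LFD males, 0.0126% in HFD females and 0.0379% in LFD females, and 0.0948% for the mean of the 4 settings. At an unadjusted p under 0.05, limma gave 6 of the 10 genes in HFD males, where 9.39% of all genes reached that level, and 0 of 10 in each of the other settings, where 5.25% (LFD males), 4.24% (HFD females) and 9.50% (LFD females) did. For the mean of the 4 settings, 1 of 10 (Dmgdh, -0.11) and 11.7% of all genes did.

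In HFD males all 10 genes had negative log2 changes with the mixture, with a median of -0.29 beside 0.03 for all genes tested. The share of all genes with a negative change was not computed, here or for the counts of signs below. Some of the 10 genes also varied together within groups, so they are not separate observations. Gnmt had 1383.1, 1906.2 and 2335.3 TPM as lowest, median and highest in mixture males and 2160.5, 2527.7 and 2579.1 TPM in vehicle males, with 5 of 6 mixture livers below every vehicle liver. Dmgdh had 301.0, 353.5 and 460.1 TPM in mixture males and 394.1, 442.2 and 470.2 TPM in vehicle males, also with 5 of 6 below. The single Dmgdh library inside the vehicle range was at 460.1 TPM.

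The log2 changes in HFD males were -0.41 for Gnmt (SE 0.13, limma adjusted p = 0.268), -0.40 for Cbs (adjusted p = 0.381), -0.38 for Cth (adjusted p = 0.514), -0.29 for Dmgdh (adjusted p = 0.212) and -0.29 for Sardh (adjusted p = 0.418). Mat1a, Bhmt and Ahcy were between -0.30 and -0.26, and Pemt and Bhmt2 were at -0.07 and -0.06. None passed the test over all genes. The 95% interval for Gnmt, -0.67 to -0.15, and that for Dmgdh, -0.46 to -0.12, are not adjusted for the number of genes.

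The livers of this group were uneven. Of the 10 genes, 7 lay below every HFD vehicle male in replicates 3, 4 and 5 of the mixture group, 5 in replicate 6, 4 in replicate 1 and 0 in replicate 2. In each of replicates 2, 4 and 6, 1 gene lay above every HFD vehicle male. The same counts over all genes were not computed, so these have no background beside them. The summed level of the 10 genes was 10573.8 TPM in replicate 2 and between 7295.3 and 9040.1 TPM in the other 5, against a mean of 10426.4 ± 658.0 TPM (SD, n = 6) in HFD vehicle males. Summed periportal markers did not overlap here, at 7160.2 to 9104.3 TPM with the mixture and 9701.7 to 10630.0 TPM with vehicle. The 5 cholangiocyte markers, all detected in every library and mostly Spp1, summed to 72.8 to 527.6 TPM with the mixture and 83.5 to 139.2 TPM with vehicle. The 6 stellate cell markers summed to 280.6 to 584.3 TPM with the mixture and 239.7 to 308.9 TPM with vehicle. Hepatocyte core markers overlapped, with medians of 108614.4 TPM with the mixture and 105349.5 TPM with vehicle. The part of these differences in the lower values of the 10 genes was not tested.

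**Figure D3:**
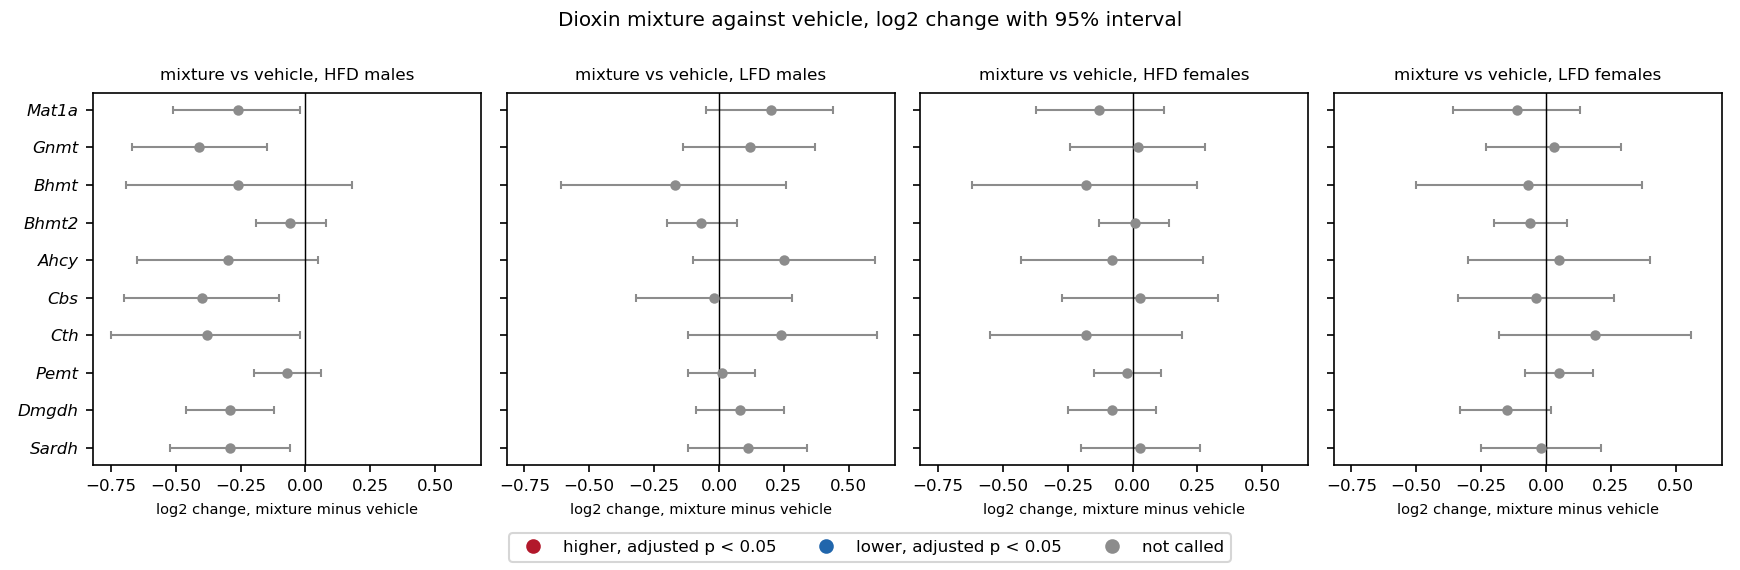
Log2 change (mixture minus vehicle) of log2(TPM + 1) for the 10 genes, with 95% intervals from limma, in HFD males, LFD males, HFD females and LFD females. All points are grey because none passed the test; in HFD males all 10 lie left of 0.

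In the other settings the changes went both ways. In LFD males 7 of 10 were positive (median 0.10), in HFD females 4 of 10 (median -0.05) and in LFD females 4 of 10 (median -0.03). The difference of the mixture's effect between diets in males was negative for 9 of 10 genes, with a median of -0.39 beside 0.03 for all genes, and none was called, beside 0.00632% of all genes. The most negative values were -0.63 for Cth (limma adjusted p = 0.549), -0.56 for Ahcy (adjusted p = 0.597) and -0.52 for Gnmt (adjusted p = 0.474), and 6 of 10 had an unadjusted p under 0.05, against 7.32% of all genes. In females the median was -0.01, none was called (0.00632% of all genes) and none had an unadjusted p under 0.05.

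Some of the 10 genes also varied together between livers of the same group. After each group's mean was subtracted, Pearson's r of log2(TPM + 1) over the 48 libraries ran from -0.37 to 0.79 among the 45 pairs. The median was 0.24, with 13 pairs over 0.5 and 13 below 0. The same values for pairs of all genes were not computed. These are descriptions: the values share their libraries and their fixed total. The closest pair was Gnmt and Ahcy (0.79), enzymes of successive steps, followed by Ahcy and Sardh (0.74) and Mat1a and Ahcy (0.71). Cth was near Sardh (0.65), Ahcy (0.61) and Gnmt (0.60). Cbs and Pemt stood outside this group, since Cbs was at 0.43 with Cth and at 0.25 or less with the others, and Pemt reached 0.13 at most.

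The 3 neighbours on chromosome 13 were also correlated. Bhmt and Bhmt2 were at 0.67, Bhmt and Dmgdh at 0.58, and Bhmt2 and Dmgdh, which share a promoter region, at 0.54. They were not apart from the other genes, since Bhmt was at 0.55 with Mat1a and 0.42 with Gnmt, and Dmgdh at 0.40 with Mat1a. With the summed periportal markers, r was 0.76 for Cth, 0.68 for Mat1a, 0.67 for Ahcy, 0.58 for Gnmt and 0.54 for Sardh, and the other 5 genes were at 0.34 or less, down to -0.16 for Pemt. With the summed pericentral markers, r was 0.63 for Ahcy, 0.46 for Sardh, 0.45 for Gnmt and 0.39 for Mat1a.

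**Figure D4:**
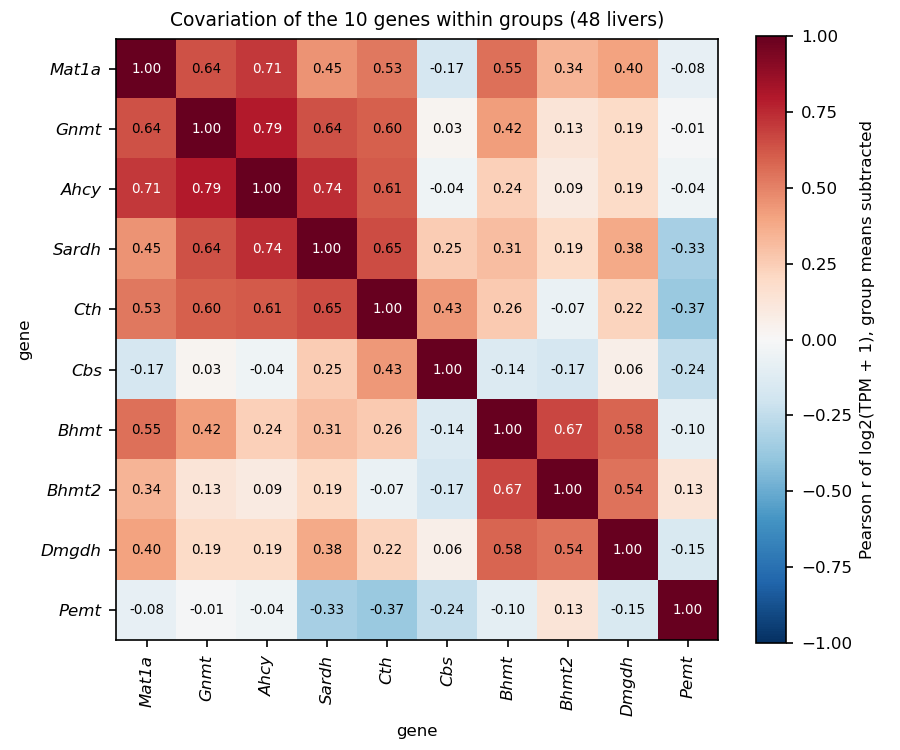
Pearson's r between pairs of the 10 genes over 48 libraries after subtracting each group's mean from log2(TPM + 1); red is positive, blue negative, and each cell gives r. Mat1a, Gnmt, Ahcy, Sardh and Cth are positive with each other, as are Bhmt, Bhmt2 and Dmgdh, while Pemt is near or below 0 with most genes.

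Among the genes most like the 10 in pattern, by correlation with the mean of their standardised values over the 48 libraries, were Hpd (r = 0.84), Asl (0.79), Afmid (0.77) and Nnmt (0.76). Hpd and Afmid encode enzymes of tyrosine and tryptophan breakdown, Asl one of the urea cycle, and Nnmt is itself a SAM-using methyltransferase. The most opposite were Sars (-0.73), Ano10 (-0.72), Kmt5a (-0.72), Plk2 (-0.72) and Syt12 (-0.71). With group means subtracted, Aldh1l1 (0.77), Slc25a48 (0.76), Ass1 (0.76), Ttc38 (0.76) and Sec14l4 (0.74) were most alike. Aldh1l1 oxidises formyl-tetrahydrofolate, and Ass1 is a urea cycle enzyme that is also among the periportal markers.

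Around the 10 genes, 83 further one-carbon genes were listed in 7 groups, of which 81 were tested. On the deposited scale more of them were higher than lower on HFD, as was so of all genes. In mixture males 33 were higher and 12 lower (45 called, beside 38.6% of all genes, 31.7% higher and 6.92% lower), with a median log2 change of 0.21 beside 0.15 for all genes. In vehicle males 38 were higher and 9 lower (47 called, beside 31.4%, 25.6% higher and 5.82% lower), with a median of 0.24 beside 0.11. In mixture females 28 were higher and 6 lower (34 called, beside 19.2%, 11.5% higher and 7.74% lower), with a median of 0.11 beside 0.00. In vehicle females 29 were higher and 9 lower (38 called, beside 28.0%, 14.4% higher and 13.5% lower), with a median of 0.15 beside -0.01. After trimmed-mean rescaling the split turned round in mixture males, with 13 higher and 21 lower, and narrowed in vehicle males, with 18 higher and 14 lower. In females it was 27 and 6 with the mixture and 33 and 10 with vehicle. The mixture called 0 of the 81 in every setting of sex and diet. Pipox, which oxidises sarcosine in peroxisomes, came nearest (-0.25 in HFD males, limma adjusted p = 0.0852), and passed when the 3 libraries with muscle transcripts were left out (adjusted p = 0.0339).

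The share of all genes called in all 4 diet comparisons was not computed, so the counts that follow have no background beside them. Of the 81 listed genes tested, 12 were higher on HFD in all 4 comparisons, and 4 of these kept all 4 calls after trimmed-mean rescaling. Those 4 were Chpt1, which makes phosphatidylcholine from diacylglycerol, with log2 changes of 0.88 to 1.47, Hnmt, which methylates histamine (0.73 to 1.04), Gss, which completes glutathione (0.70 to 0.88), and Sat1, which acetylates polyamines (0.45 to 0.50). Chpt1 averaged 121.1 TPM on HFD and 54.4 TPM on LFD in mixture males, and 83.4 TPM on HFD and 29.7 TPM on LFD in vehicle females. Mat2a, a second SAM synthase gene, rose by 0.39 to 0.50 in all 4 as deposited, but did not keep all 4 calls after rescaling. In vehicle males it averaged 63.2 TPM on HFD and 44.4 TPM on LFD, far below Mat1a.

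The sulfur list, which takes cysteine to glutathione, taurine, sulfide and sulfate, had 3 genes higher and 3 lower of 11 in mixture males, 7 and 1 in vehicle males, 7 and 1 in mixture females, and 8 and 1 in vehicle females. These counts are on the deposited scale. Of all genes, 31.7% were higher and 6.92% lower in mixture males, and 25.6% and 5.82% in vehicle males. In females the shares were 11.5% and 7.74% with the mixture, and 14.4% and 13.5% with vehicle. The higher genes of the sulfur list included Gss, Gclm (glutathione synthesis, 0.32 to 0.62) and Suox (sulfite oxidase, 0.37 to 0.90), while Cbs and Cth upstream of them were lower or did not pass. Gclm and Suox did not keep all 4 calls after trimmed-mean rescaling. Got1, a cytosolic aminotransferase, was lower in all 4, by -1.55 to -0.77, and was the 1 gene of the 81 called so in all 4, with or without rescaling. In vehicle males the call was lost without the filter on low values (-0.77, limma adjusted p = 0.0585). It averaged 190.3 TPM on HFD and 570.4 TPM on LFD in mixture males.

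Among the listed sarcosine and methyltransferase genes, Pipox and Inmt are described because their values differed by sex. Pipox was lower on HFD in males, by -0.65 with the mixture (SE 0.06, limma adjusted p = 3.24e-11) and by -0.32 with vehicle (adjusted p = 5.62e-05), and higher in vehicle females (0.30, adjusted p = 0.000209). The difference between the sexes among vehicle livers was -0.62 (adjusted p = 2.39e-06). Inmt, an indole and thioether methyltransferase, averaged 1299.7 TPM on HFD and 440.6 TPM on LFD in mixture females, a change of 1.56 (adjusted p = 1.69e-11), and 1479.9 TPM on HFD and 398.8 TPM on LFD in vehicle females, a change of 1.92. In males it was 0.30 with the mixture, which did not pass, and 0.41 with vehicle, a call that rescaling ended (0.26, adjusted p = 0.204). Aldh1l1 was lower on HFD in mixture males (-0.59), vehicle males (-0.40) and vehicle females (-0.34), the last only with the 3 libraries with muscle transcripts kept.

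Methionine salvage and polyamine genes had 8 higher and 1 lower of 13 in mixture males, 7 and 1 in vehicle males, 4 and 0 in mixture females, and 3 and 0 in vehicle females. In mixture males rescaling ended the calls of Enoph1 (0.26, limma adjusted p = 0.0576) and Adi1 (0.12, adjusted p = 0.0826), both of methionine salvage, and of Odc1, which makes putrescine (0.25, adjusted p = 0.134). The shares of all genes called in each direction, given above, also leaned to higher in both sets of males. Folate and remethylation genes were mixed, with 6 higher and 3 lower of 19 in mixture males, 8 and 3 in vehicle males, 5 and 2 in mixture females, and 5 and 5 in vehicle females. Betaine and choline genes other than the 10 had 5 and 3 of 14 in mixture males, 5 and 2 in vehicle males, 4 and 0 in mixture females, and 3 and 2 in vehicle females. Between the sexes, 16 of the 81 were higher and 18 lower in LFD vehicle males than in females, beside 23.7% of all genes, and 9 were higher and 9 lower on HFD, beside 11.8%. Rescaled, these were 21 higher and 12 lower on LFD, and 8 higher and 13 lower on HFD. The effect of diet differed between the sexes for 23 of the 81 among mixture livers, 11 more positive and 12 more negative in males, beside 17.0% of all genes (13.4% and 3.65%). Among vehicle livers it differed for 16, 10 more positive and 6 more negative, beside 18.2% (14.8% and 3.47%). Rescaled, 4 were more positive and 24 more negative among mixture livers, and 4 and 16 among vehicle livers.

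**Figure D5:**
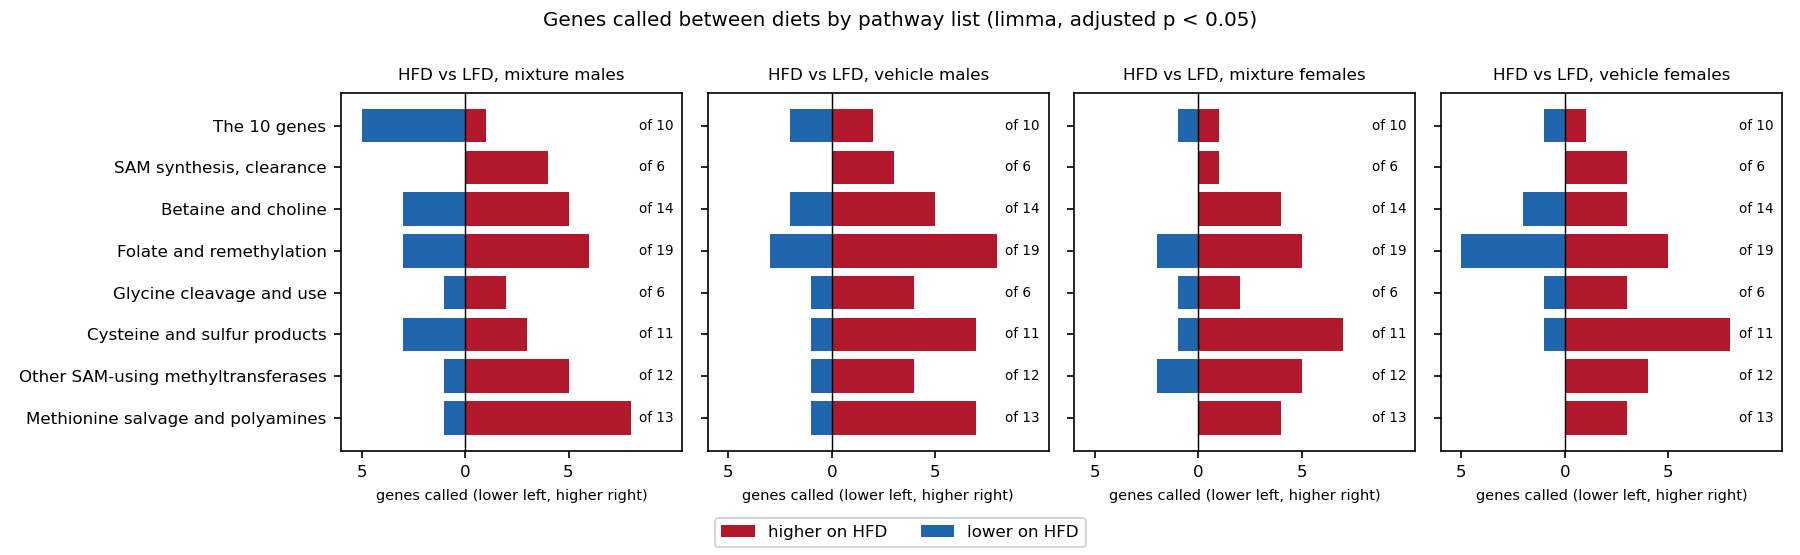
Number of genes called higher (red, right of 0) or lower (blue, left of 0) on HFD than on LFD in the 10 genes and the 7 lists of other one-carbon genes, with the number tested at the right of each bar. Calls are on the deposited scale. In mixture males the 10 genes have 5 lower and 1 higher, and the 7 lists together 12 lower and 33 higher, which became 21 lower and 13 higher after trimmed-mean rescaling.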

How the data were processed

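Poly(A) RNA of 48 mouse livers was measured in 8 groups of 6. Extraction used an RNeasy plus mini kit (Qiagen) with pre-made libraries (Azenta Life Sciences), per the labels' protocols. The submitters' processing notes name STAR 2.5.2b, Trimmomatic 0.36, FastQC, DESeq2 and the GRCm38 build without roles, and the sources used here do not state the counter, the annotation or the use of strand. The authors deposited TPM for each library, with columns that sum to 1000000 and so keep no depth; no interval or floor that needs counts was computed. No pair of libraries was identical (highest correlation 0.9835).

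Tests used limma 3.58.1 on log2(TPM + 1) (R 4.3.3, moderated, intensity trend), for genes that reached 1 TPM in 6 or more libraries. One model with 8 group means and 40 residual degrees of freedom gave each comparison. P-values were adjusted by Benjamini-Hochberg over the 15820 genes within a comparison, with a threshold of 0.05; "called" and "passed" mean an adjusted p under it. Log2 changes are differences between the groups' mean log2(TPM + 1), which understates low genes, with 95% intervals. The model was tested on simulated data with known changes. Alternatives were a pseudocount of 0.1, no filter on low values, rescaling by trimmed means (30% of log ratios and 5% of abundances trimmed), a fit of only the groups compared, the replicate number as a block, and leaving out 3 libraries with muscle transcripts.

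The members, the gene lists and these 3 libraries were chosen with earlier results of these data known. All 10 genes are named in every comparison; of the lists, called genes were named, at most 6 of smallest p per list and comparison. Likeness was read from the 5 highest and 5 lowest correlations, predicted genes left out; a gene that this rule picked is not reported here. Pipox's uncalled value in the mixture comparison was named after it was seen.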

Additional observations from a re-analysis of the deposited data

Results flagged for a closer look

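Single libraries lay far from the other 5 of their group in 7 of 80 sets of 6 values (10 genes in 8 groups), judged by the gap to the nearest value over the range; chance gives about 1 in 20. Mat1a was 2494.1 TPM in male LFD vehicle replicate 4, against 1674.0 to 1898.9 in the others. Bhmt2 was 249.6 TPM in male HFD vehicle replicate 6 (others 216.8 to 221.8) and 278.4 TPM in male LFD mixture replicate 5 (others 205.7 to 222.2). Cbs was 535.2 TPM in female LFD vehicle replicate 1 (others 357.6 to 410.7), and Dmgdh 390.0 TPM in female HFD mixture replicate 6 (others 439.9 to 465.7). Sardh was 282.7 TPM in female LFD mixture replicate 3 (others 373.1 to 421.3), the library that also held muscle and adrenal transcripts, and 484.3 TPM in female LFD vehicle replicate 6 (others 340.1 to 385.6).

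The effect of diet differed between males and females in limma's interaction term for 3 genes among vehicle livers. It was more positive in males for Mat1a (0.73) and more negative for Pemt (-0.32) and Sardh (-0.50). Among mixture livers it was more negative in males for 5 genes, Sardh (-0.95), Cth (-0.73), Gnmt (-0.52), Dmgdh (-0.39) and Pemt (-0.33).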

How the results depend on the processing

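Each change of a gene was recomputed under 5 or 6 alternatives, 890 values in all, of which 852 kept their direction and their side of the threshold, 10 lost a call, 7 gained one and 21 changed sign. None of the 21 was called in either fit. With trimmed-mean scaling they were, between HFD and LFD, Ahcy in vehicle males (-0.15) and Mat1a in mixture males (-0.15); with the mixture in HFD females, Gnmt (-0.03), Bhmt2 (-0.03), Cbs (-0.01) and Sardh (-0.01); between LFD males and females, Gnmt (0.03), Bhmt (0.03), Bhmt2 (0.00) and Pemt (0.09); in the mixture's effect between diets in males, Bhmt2 (-0.04); and in the diet effect between sexes, Bhmt2 (-0.07) and Dmgdh (-0.10) with vehicle and Bhmt2 (-0.16) with the mixture. Without the 3 libraries with muscle transcripts they were, with the mixture in LFD females, Bhmt (0.04), Cbs (0.02) and Sardh (0.05); Pemt in the mean of the 4 settings (0.00) and between diets in vehicle females (-0.01); Bhmt2 between diets in mixture males (0.02); and Sardh in the mixture's effect between diets in females (-0.02). The cause was not tested.

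Of 178 counts of calls, 173 stayed within 1.5 times. Between LFD males and females scaling gave 2 of the 10 genes for 1. In the diet effect between sexes among mixture livers, no filter and the fit of only the groups compared each gave 3 for 5; without the filter more genes are tested. Among vehicle livers no filter gave 10 of the other one-carbon genes for 16. With the mixture in HFD males, leaving out the 3 libraries gave 1 of them (Pipox) for 0. Over all genes, the mixture called 15 in HFD males, 47 without those libraries and 1 with only the 2 groups fitted; in LFD males 6, and 3 with only the 2 groups; in LFD females 6, and 3 with scaling; in HFD females 2, and 4 without those libraries; and for the mean of settings 15, and 8 with scaling. The mixture's effect between diets in males called 1, and 2, 4 or 12 with no filter, the block or without those libraries. Scaling gave 50.9% of called genes as higher in the diet effect between sexes with vehicle (81.0% as deposited) and 44.1% with the mixture (78.5%).

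The labels do not say whether replicate numbers pair the livers. Same-numbered libraries of compared groups correlated between -0.21 and 0.44 after group means were subtracted. In no comparison were all 6 pairs over 0.1. Of 6 libraries, 2 to 4 correlated best with their own number in the diet comparisons, and 0 to 2 in the others. These values do not decide whether the livers were paired. With the number as a block, 4 of the 10 genes passed between diets in vehicle males, as without it, and the block changed 1 call among the 10, Cth in the diet effect between sexes among mixture livers (adjusted p = 0.0581). TPM keep no depth, so the precision of low genes could not be judged; the 10 genes were all above 100 TPM.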
